A study of Arabidopsis thaliana with 14 samples.

Results

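BAN (anthocyanidin reductase, locus AT1G61720) and DFR (dihydroflavonol reductase, locus AT5G42800, also called TT3) are enzymes of the flavonoid pathway of plants. They were chosen by name from the annotation of the array platform, where each has 1 probe set, so that 2 genes of 13350 with a probe set that names them alone, and 2 of 22746 probe sets, are described here across all 7 groups of samples. The choice used no measured value, but it was made with earlier results of these data known. Both were among the 14765 probe sets that passed the filter on dim values and were tested.

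The flavonoid pathway starts from phenylalanine and passes through chalcones and flavanones to dihydroflavonols. DFR reduces dihydroflavonols to leucoanthocyanidins and thereby commits them to anthocyanins and proanthocyanidins, and leucoanthocyanidin dioxygenase (LDOX) turns leucoanthocyanidins into anthocyanidins. BAN reduces anthocyanidins to the epicatechin units of proanthocyanidins, the condensed tannins that are laid down in the inner layer of the Arabidopsis seed coat and turn brown as the seed matures. DFR therefore serves both branches, while BAN serves only the proanthocyanidin branch. Mutants of BAN accumulate anthocyanin in the immature seed coat, and mutants of DFR have yellow seeds.

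The samples came from unmodified Arabidopsis thaliana plants of accession Ws-0, 38 to 46 days old, grown at 20 °C in continuous light, whose seeds had reached the bending-cotyledon stage with cotyledons of 100 to 140 µm. Laser microdissection of fixed, paraffin-embedded seeds gave 6 compartments, which were the chalazal seed coat (the region at the stalk end of the seed, where the vascular supply enters), the general seed coat, 3 regions of the endosperm (peripheral, micropylar and chalazal) and the embryo proper, and sections through whole seeds formed the last group. Each group had 2 biological replicates on Affymetrix ATH1 arrays, 14 arrays in all. For the micropylar endosperm the cell-type label reads embryo proper, while its source and description name the micropylar endosperm, and the latter were followed. The embryo and endosperm are products of fertilisation, whereas the seed coat is maternal tissue.

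Levels are the deposited signal intensities, on a linear scale that the authors had set to the same trimmed mean on every array, and are given as mean ± SD with n = 2 arrays, which limits the precision. Array medians lay between 99.01 and 188.1 and serve as a yardstick of brightness, since no detection calls were used. Differences are on the log2(intensity + 32) scale, which understates the change of dim probe sets. Where a group lies below the array median, the size of a difference depends on the constant added. A small difference can also change direction with it. Each difference is given with the standard error (SE) of a limma fit over all 14 arrays. A difference was called when its adjusted p was under 0.05 and its size at least 1 on the log2 scale. A lower level in a compartment may reflect fewer cells that hold the transcript or less transcript per cell, and these cannot be told apart.

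The labels were checked against marker genes whose probe set names a single gene. YAB3, the only embryo marker of 10 listed with such a probe set, read 2075 to 2128 in the embryo proper, 843.1 to 1189 in whole seeds and at most 51.78 in the other groups. SWEET10, the only chalazal seed coat marker of 4 listed with a probe set, read 15940 to 16370 in the chalazal seed coat, 643 to 692.2 in whole seeds and at most 105.3 elsewhere. Of 10 general seed coat markers, 4 had a probe set, and their summed intensity was 42780 to 49390 in the general and 23390 to 31010 in the chalazal seed coat. ARA12, at 32820 ± 2320 and 18260 ± 3520, and AT2G22900, at 11840 ± 2050 and 3434 ± 1170, made up most of these sums. The marker AT3G50990 went against its label, at 144 ± 37.7 in the general and 4962 ± 742 in the chalazal seed coat (log2 difference 4.84, limma, adjusted p = 8.47e-06). Of 10 endosperm markers only AGL62 and IKU2 had a probe set, and both lay below the array median in every group, so the endosperm labels could not be checked with them. Pearson's r between replicates over probe sets lay between 0.8672 (peripheral endosperm) and 0.9671 (embryo proper).

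DFR was brightest in the chalazal seed coat, at 6705 and 6449 on its arrays (6577 ± 181). In the general seed coat it read 2897 and 2221 (2559 ± 478). Both regions of the seed coat stood far above the array median. In the micropylar endosperm DFR read 413.6 in replicate 1 and 1050 in replicate 3 (731.8 ± 450), so that its replicates lay far apart. In the peripheral endosperm it read 243.6 and 371.2 (307.4 ± 90.2), also above the array median. The chalazal endosperm, at 9.641 and 50.29 (29.97 ± 28.7), and the embryo proper, at 22.98 and 25.84 (24.41 ± 2.02), lay below the array median on every array. Whole seeds read 706.1 and 538.1 (622.1 ± 119), within the range of the micropylar endosperm arrays.

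BAN was also brightest in the chalazal seed coat, at 2617 and 2259 (2438 ± 254). In the general seed coat it read 765.5 and 538 (651.7 ± 161), so that these groups did not overlap. The peripheral endosperm came next, at 191.1 and 207.4 (199.2 ± 11.5), above the median of its arrays. The micropylar endosperm, at 122 in replicate 1 and 90.26 in replicate 3 (106.1 ± 22.4), lay just below the array median. BAN was close to the bottom of the scale in the chalazal endosperm, at 4.545 and 4.486 (4.516 ± 0.042), and in the embryo proper, at 1.377 and 4.896 (3.136 ± 2.49). Differences among readings this low carry no order. Whole seeds read 177.7 and 140.1 (158.9 ± 26.6), between the peripheral and the micropylar endosperm without overlap with either, and below the array median.

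**Figure D1:**
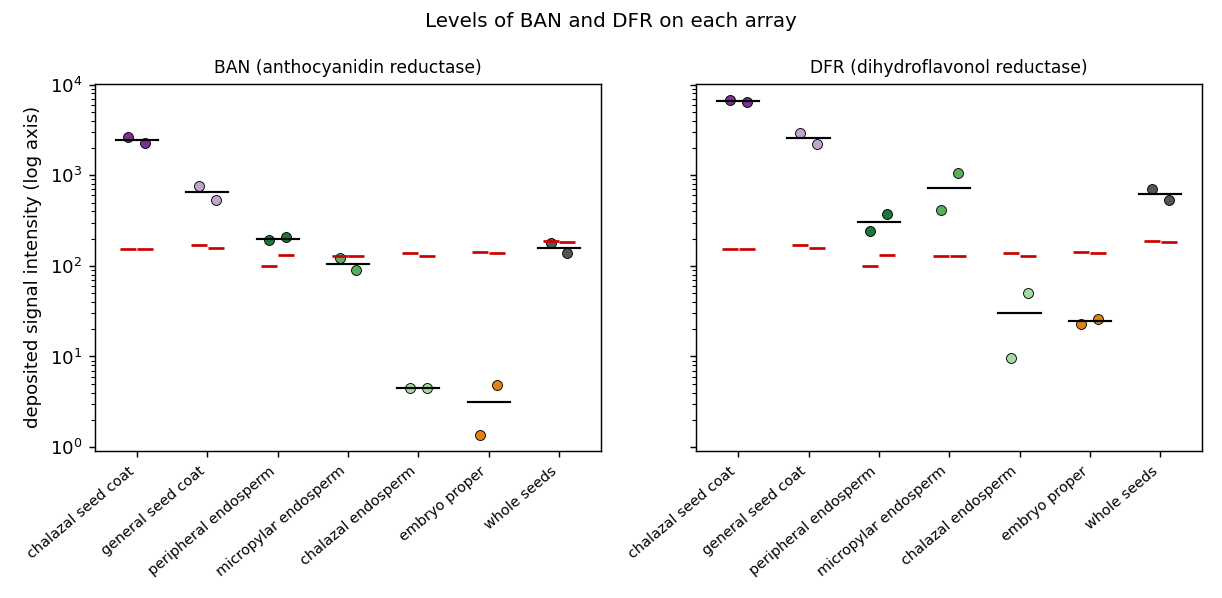
Deposited signal intensity (log axis) of BAN and DFR on each array of the 7 groups, with a point for each array, a black line at the group mean (n = 2) and a short red line at that array's median. Both genes were brightest in the chalazal seed coat, with the general seed coat next, and both fell below the array median in the chalazal endosperm and the embryo proper.

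The first comparison asks whether the transcripts of these enzymes lie in the maternal seed coat rather than in the embryo and endosperm. DFR was higher in the seed coat (mean of both regions) than in the embryo proper and the 3 endosperm regions by 4.63 ± 0.29 (SE) on the log2 scale, a 24.8-fold difference with a 95% interval of 4.02 to 5.24 (limma, adjusted p = 2.64e-09). BAN was higher by 4.01 ± 0.28, or 16.1-fold, with an interval of 3.42 to 4.6 (limma, adjusted p = 6.56e-09). Of all probe sets tested, 34.8% were called in this comparison, 2796 of them higher and 2346 lower in the seed coat, so that a call alone is common here. The size is less so, since 97 of the 14765 probe sets (0.657%) had a larger difference than DFR and 173 (1.17%) a larger one than BAN. The lowest seed coat array lay above the highest embryo or endosperm array for each gene, by 2221 against 1050 for DFR (2.12-fold) and by 538 against 207.4 for BAN (2.59-fold). The share of all probe sets with such a separation was not counted. The size depends on the constant added, at 5.6 for BAN and 5.29 for DFR with log2(intensity + 1) and at 3.1 and 3.98 with log2(intensity + 100), so that which gene differed more is not settled. An exact two-sided permutation test of the 4 seed coat against the 8 other arrays gave p = 0.00202 for each gene, the smallest that its 495 splits allow. It shuffles single arrays, although the replicates of a group share its tissue. Its p therefore does not measure the spread between compartments and overstates the evidence on them. The same holds for the limma SE, intervals and p-values above, which rest on the spread between replicates within groups. Among the embryo and endosperm groups, log2 means ran from 5.13 to 7.85 for BAN and from 5.82 to 9.44 for DFR.

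**Figure D2:**
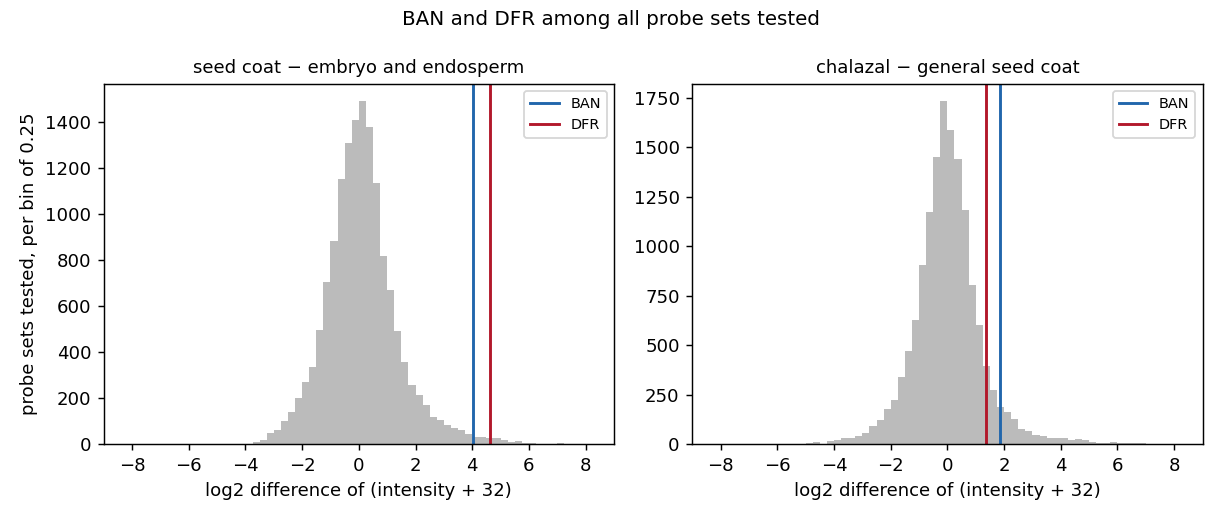
Histograms of the log2 difference over all 14765 probe sets tested, in bins of 0.25, for the seed coat against the embryo and endosperm (left) and for the chalazal against the general seed coat (right), with vertical lines at BAN and DFR. In the left panel both genes lie in the far right tail, with 173 probe sets beyond BAN and 97 beyond DFR. In the right panel BAN, at 1.87, lies to the right of DFR, at 1.36.

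Within the seed coat, the chalazal region was brighter than the general region for both enzymes. BAN was higher by 1.87 ± 0.46 (SE), or 3.65-fold, with a 95% interval of 0.91 to 2.83, and passed the test (limma, adjusted p = 0.0082). DFR had a difference of 1.36 ± 0.47, or 2.57-fold, with an interval of 0.37 to 2.36, and did not pass (limma, adjusted p = 0.0578). Of all probe sets tested, 16.4% were called between these regions. A larger difference than that of BAN was found for 844 (5.72%), and than that of DFR for 1411 (9.56%). The lower chalazal array stood above the higher general one by 2.95-fold for BAN and 2.23-fold for DFR. How many of all probe sets separate in this way was not counted. The ratio of 3′ to 5′ GAPDH control signal, a sign of RNA quality, was 5.249 and 5.129 on the general and 3.39 and 4.003 on the chalazal seed coat arrays, and its part in these differences was not tested. Whether the genes differ in this ratio of chalazal to general was not tested, and their intervals overlap over most of their length. These calls are near the threshold. That of BAN was lost with log2(intensity + 1), at 1.92 (limma, adjusted p = 0.0959), without replicate 1 of the chalazal seed coat, at 1.76 (adjusted p = 0.0636), and without replicate 2 of the general seed coat, at 1.63 (adjusted p = 0.0666). That of DFR was gained under several alternatives, with adjusted p-values from 0.00258 to 0.228 over all of them.

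Against each of the 4 embryo and endosperm groups taken singly, both seed coat regions were higher for both genes, and all 16 of these differences were called. The chalazal seed coat exceeded the peripheral endosperm by 4.31 for DFR and 3.41 for BAN on the log2 scale (limma, adjusted p = 2.03e-06 and 1.69e-05), where 35.2% of all probe sets were called. It exceeded the micropylar endosperm by 3.25 for DFR and 4.17 for BAN (adjusted p = 4.79e-05 and 2.27e-06), where 32.3% were called. The distance to the peripheral endosperm was thus larger for DFR and the distance to the micropylar endosperm larger for BAN, which was not tested as a difference. The chalazal endosperm, which lies next to the chalazal seed coat in the seed, was 6.82 lower for DFR and 6.08 lower for BAN (adjusted p = 2.39e-08 and 5.35e-08), where 33.5% of probe sets were called. The embryo proper was 6.87 lower for DFR and 6.13 lower for BAN (adjusted p = 8.75e-09 and 1.98e-08), where 40.6% were called. All 8 differences have an SE of 0.47 for DFR or 0.46 for BAN. Those from the chalazal endosperm and the embryo proper, where both genes lay below the array median, took their size from the constant added. Against the chalazal endosperm the difference was 8.14 for DFR and 8.78 for BAN with log2(intensity + 1), and 5.7 and 4.6 with log2(intensity + 100), called throughout.

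From the general seed coat the distances were shorter. It exceeded the peripheral endosperm by 2.95 for DFR (limma, adjusted p = 0.000152) and by 1.54 for BAN (95% interval 0.58 to 2.51, adjusted p = 0.0152), where 31.6% of probe sets were called. The difference in BAN was the smallest of the called ones, and it was not called with log2(intensity + 1) (adjusted p = 0.092) or without replicate 1 of the general seed coat, at 1.3 (adjusted p = 0.0961). The general seed coat exceeded the micropylar endosperm by 1.89 for DFR and 2.3 for BAN (adjusted p = 0.00588 and 0.00108), where 29.2% were called. For DFR this call was lost without replicate 1 of the micropylar endosperm, at 1.25 (adjusted p = 0.101), or without replicate 1 of the general seed coat, at 1.7 (adjusted p = 0.0506). Scaling to the spike controls moved these differences to -0.02 for DFR (adjusted p = 0.969) and 0.57 for BAN (adjusted p = 0.337), and that of BAN from the peripheral endosperm to 0.37 (adjusted p = 0.593). The chalazal endosperm lay 5.46 below the general seed coat for DFR and 4.21 for BAN (adjusted p = 1.55e-07 and 1.67e-06), where 37% were called. The embryo proper lay 5.51 below it for DFR and 4.26 for BAN (adjusted p = 1.83e-07 and 1.74e-06), where 37.3% were called.

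Among the filial compartments, the peripheral and micropylar endosperm stood above the chalazal endosperm and the embryo proper for both enzymes. The peripheral endosperm was higher than the chalazal endosperm by 2.51 for DFR and 2.66 for BAN (limma, adjusted p = 0.000529 and 0.000224), where 34.9% of probe sets were called. It was higher than the embryo proper by 2.56 for DFR and 2.72 for BAN (adjusted p = 0.000851 and 0.000373), where 22.3% were called. The micropylar endosperm was higher than the chalazal endosperm by 3.57 for DFR and 1.91 for BAN (adjusted p = 1.75e-05 and 0.00337), where 36.5% were called. It was higher than the embryo proper by 3.62 for DFR and 1.97 for BAN (adjusted p = 4.34e-05 and 0.00582), where 17.3% were called. The BAN call against the embryo proper was lost without replicate 1 of the micropylar endosperm, at 1.8 (adjusted p = 0.0547), and without replicate 1 of the embryo proper, at 1.89 (adjusted p = 0.0615). With log2(intensity + 100) the micropylar endosperm differed in BAN by 0.98 from the chalazal endosperm and by 0.99 from the embryo proper, under the size needed for a call, while log2(intensity + 1) gave 4.26 and 4.82.

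The general seed coat markers differed among themselves in the filial compartments. The summed intensity of the 4 was 3262 to 4126 in the peripheral endosperm, 2596 to 2831 in the micropylar endosperm, 2588 to 2987 in the embryo proper and 666.7 to 773.5 in the chalazal endosperm. ARA12 and AT2G22900, the only ones above the array median on both arrays of the peripheral endosperm, the micropylar endosperm and the embryo proper, carried these sums, with ARA12 also above it in the chalazal endosperm (395.5 to 516.8). AT3G10320 was near the bottom of the scale, at 7.368 ± 3.29 in the embryo proper, 23.04 ± 19.7 in the peripheral endosperm and 45.49 ± 1.38 in the micropylar endosperm. AT3G50990 read 6.031 ± 5.46, 8.869 ± 3.27 and 67.79 ± 60.6 in these groups. In the chalazal endosperm AT3G10320 read 14.11 ± 8.87. AT3G50990 had its highest filial level there, at 135.9 ± 39, with replicate 1 (163.5) above the array median. The part of seed coat RNA in the endosperm values of BAN and DFR was not tested.

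Neighbours in the order of levels did not all differ. For DFR the micropylar endosperm had the higher mean and for BAN the peripheral endosperm, but neither difference was called: the peripheral minus micropylar value was -1.06 for DFR (95% interval -2.06 to -0.06, limma, adjusted p = 0.192) and 0.75 for BAN (interval -0.21 to 1.71, adjusted p = 0.343), where 6.31% of probe sets were called. The micropylar endosperm arrays also started from less RNA, 2 to 5 ng against 5 to 6 ng in the other groups. In every difference from the micropylar endosperm, RNA amount and compartment cannot be told apart. The chalazal endosperm and the embryo proper differed by 0.05 for DFR (interval -0.94 to 1.05, adjusted p = 0.94) and 0.06 for BAN (interval -0.9 to 1.02, adjusted p = 0.933), although 37% of all probe sets were called between these groups. The latter intervals leave room for differences of up to about 1 on the log2 scale. Leaving aside the split within the seed coat, the levels as fitted above formed 3 steps for both genes. These were the seed coat regions, the peripheral and micropylar endosperm, and the chalazal endosperm with the embryo proper. Other settings blurred these steps. With spike controls, general seed coat minus micropylar endosperm was -0.02 for DFR and 0.57 for BAN, neither called. General seed coat minus peripheral endosperm was 0.37 for BAN, not called, while that of DFR stayed called. Peripheral minus micropylar was then called for DFR, at -1.73. Some calls of the general seed coat were also lost with log2(intensity + 1) or without single arrays. The BAN calls of the micropylar endosperm over the lowest step were lost with log2(intensity + 100). Over the 15 pairs of compartments BAN was called in 13 and DFR in 12, and all 12 pairs called for DFR were called for BAN too. The median over all probe sets tested was 4 pairs, and 87 probe sets (0.589%) were called in at least as many pairs as BAN and 286 (1.94%) in at least as many as DFR.

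**Figure D3:**
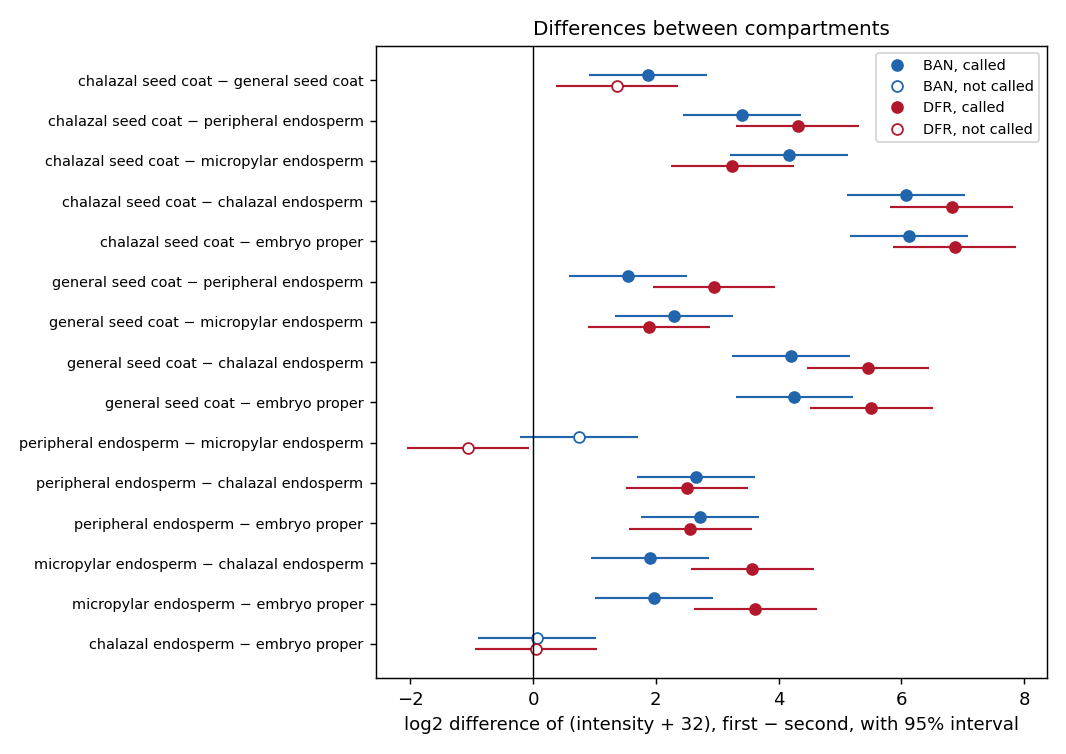
Log2 difference of (intensity + 32) with its 95% interval for each of the 15 pairs of compartments, BAN in blue and DFR in red, with filled points for called differences. The open points are the chalazal against the general seed coat for DFR, and, for both genes, the peripheral against the micropylar endosperm and the chalazal endosperm against the embryo proper.

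BAN and DFR rose and fell together over most arrays. On the log2 scale their Pearson's r was 0.9552 over all 14 arrays (Spearman's rho 0.8462), 0.958 over the 12 compartment arrays (rho 0.9021) and 0.8485 over the 8 embryo and endosperm arrays (rho 0.6667). These values are a description, since the arrays fall into groups and the replicates of a group share its tissue. An exception among dim readings was the chalazal endosperm, where DFR read 9.641 and 50.29 but BAN 4.545 and 4.486. Another was the micropylar endosperm, where DFR was higher in replicate 3 and BAN was higher in replicate 1. Within these arrays the log2 of BAN minus that of DFR was -1.53 in replicate 1 and -3.15 in replicate 3, a wider gap between replicates than in any other group. Replicate 3 also had the highest ratio of 3′ to 5′ GAPDH control signal, at 7.495 against 2.165 to 5.249 on the other arrays, and its part in these values was not tested.

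**Figure D4:**
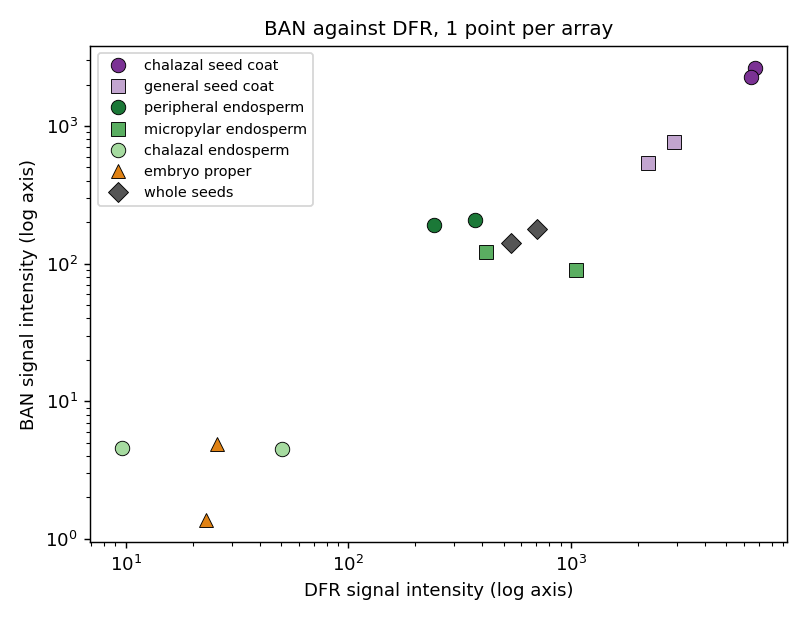
BAN against DFR signal intensity (both axes log), with a point for each of the 14 arrays marked by group. The arrays run from the chalazal endosperm and embryo proper at the lower left to the chalazal seed coat at the upper right, and the micropylar endosperm arrays lie apart along the DFR axis, at 413.6 and 1050.

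In sections of whole seeds, which hold every compartment, both transcripts were far dimmer than in the captured seed coat. The whole-seed mean of BAN was 6.52% of its level in the chalazal and 24.4% of that in the general seed coat, and the corresponding values for DFR were 9.46% and 24.3%. Against the mean of the 6 compartments on the log2 scale, whole seeds differed by -0.09 ± 0.35 (SE) for BAN (95% interval -0.82 to 0.65, limma, adjusted p = 0.919) and by 0.42 ± 0.36 for DFR (interval -0.34 to 1.18, adjusted p = 0.543), and neither was called, where 7.42% of all probe sets were. Against the arithmetic mean of the compartment levels the whole-seed level was lower, at 158.9 against 567.1 for BAN (a ratio of 0.28) and 622.1 against 1705 for DFR (0.365). That mean gives each compartment the same weight, whatever its share of the seed's RNA.

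Of the other flavonoid genes, few could be followed here. The lists of the pathway held 49 genes besides BAN and DFR, and 8 of them were represented by a probe set naming a single gene, with 6 tested, since UF3GT and AT5MAT were too dim. None of the 9 genes of the early steps to 4-coumaroyl-CoA and none of the 18 regulators had such a probe set, so TT2, TT8, TTG1 and their partners were not analysed here. Since a gene can pass the filter through the group where it is high, all 8 were counted in a fit without it. In the seed coat against the embryo and endosperm, 3 of the 8 were higher, 1 was lower and 4 were not called, with a median of 0.13 against 0.12 over all probe sets, of which 23.8% were called. Between the chalazal and the general seed coat 0 were higher, 1 was lower and 7 were not called, with a median of -0.12 against -0.06 and 9.89% of all called. In whole seeds 2 were higher and 6 were not called, with a median of 0.47 against 0.13 and 4.39% of all called. The values that follow are from the fit with the filter. In whole seeds against the compartment mean, UGT78D1, at 1.1 (limma, adjusted p = 0.0165), and AT1G06000, at 1.48 (adjusted p = 0.0316), were higher.

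CHIL, a chalcone isomerase-like protein, was the only other gene of the core pathway tested. It read 1217 ± 132 in the chalazal seed coat, 655.8 ± 235 in the general seed coat, 446.1 ± 18.5 in the embryo proper, 294 ± 98.6 in the peripheral, 228 ± 153 in the micropylar and 98.81 ± 75.1 in the chalazal endosperm. It was higher in the seed coat than in the embryo and endosperm by 1.83 ± 0.32 (SE, limma, adjusted p = 0.000145), less than BAN and DFR. The chalazal minus general seed coat difference was 0.9 and was not called (adjusted p = 0.266). CHIL was bright in the embryo proper, where BAN and DFR were near the bottom of the scale, and its difference between the general seed coat and the embryo proper was 0.48 (adjusted p = 0.491, not called). UGT80B1 (TT15), a sterol glucosyltransferase whose mutants have pale seeds, read 761.5 ± 123 in the peripheral and 654 ± 121 in the chalazal endosperm against 195.3 ± 39.1 in the chalazal seed coat, and its difference in the seed coat against the embryo and endosperm was -0.52 (adjusted p = 0.134, not called).

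Of the tested enzymes listed as decorating flavonoids, UGT78D1, UGT78D2 and AT1G06000 followed other patterns than BAN and DFR. UGT78D1, a flavonol 3-O-rhamnosyltransferase, was higher in the seed coat than in the embryo and endosperm by 2.93 ± 0.22 (SE, limma, adjusted p = 1.63e-08) but lower in the chalazal than in the general seed coat with a difference of -2.12 ± 0.36 (adjusted p = 0.000544), at 9943 ± 1860 against 43980 ± 12800. It also read 9186 ± 964 in the embryo proper and 7689 ± 5070 in the micropylar endosperm. UGT78D2, a flavonoid 3-O-glucosyltransferase, read 630.3 ± 102 in the embryo proper and 674.4 ± 121 in the micropylar endosperm, and its seed coat difference of -0.94 (adjusted p = 0.0181) was below the size needed for a call. The loci AT4G14090 and AT1G06000 were listed among decorating enzymes, but the tables used here give them no name. AT4G14090 was dim, at 171.8 ± 23.3 in the chalazal and 146.8 ± 73.2 in the general seed coat. In the filial groups it read from 52.16 ± 57.9 (embryo proper) to 73.42 ± 28.3 (micropylar endosperm). As for BAN and DFR, it was higher in the seed coat, by 1.07 ± 0.37 (limma, adjusted p = 0.0256). However, it passed the filter only through the chalazal seed coat. AT1G06000 was lower in the seed coat, with a log2 difference of -3.38 ± 0.33 (adjusted p = 3.42e-07) and a level of 3.924 ± 1.81 in its chalazal region against 1332 ± 118 in the embryo proper and 1427 ± 533 in the peripheral endosperm.

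**Figure D5:**
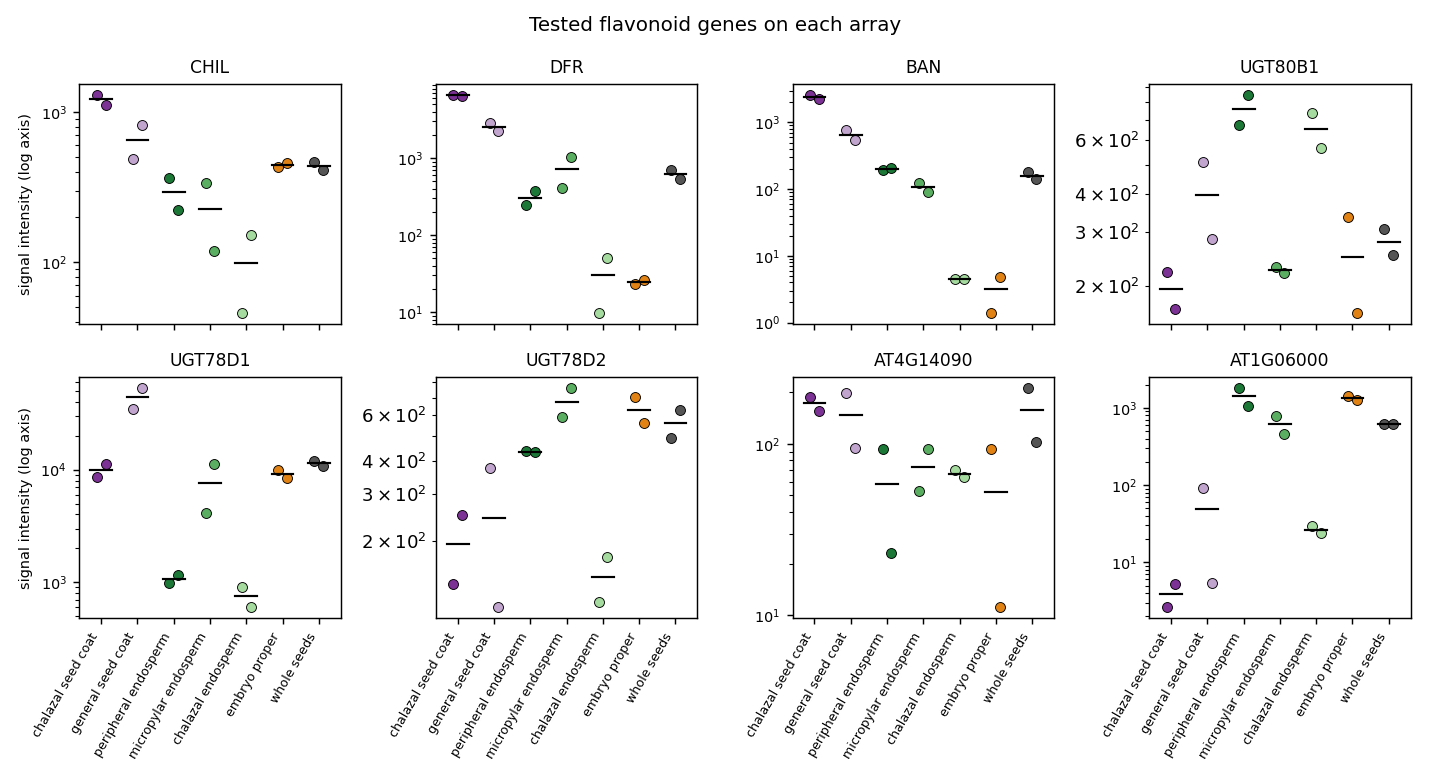
Signal intensity (log axes, each panel on its own scale) of the 8 tested flavonoid genes on each of the 14 arrays, with a line at each group mean (n = 2). CHIL shares the peak of DFR and BAN in the chalazal seed coat, UGT78D1 peaks in the general seed coat, and AT1G06000 is lowest in the chalazal seed coat.

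The probe sets most like each member were ranked by Pearson's r over the 14 arrays among 8174 probe sets with a single gene name. For BAN the closest were AT1G24010 (r = 0.9635), DFR (0.9552), AT4G01610 (0.9543), GAMMA-VPE, a vacuolar processing enzyme (0.9474), and AT3G10250 (0.9426). For DFR they were AT1G23040 (0.9711), AT4G01610 (0.9656), AT2G42860 (0.9577), BAN (0.9552) and AT2G39400 (0.9542). BAN thus ranked the fourth for DFR and DFR the second for BAN. AT4G01610, on both lists, read 8046 ± 255 in the chalazal and 2668 ± 325 in the general seed coat, 689.6 ± 142 in the peripheral and 1308 ± 43.2 in the micropylar endosperm, while the embryo proper gave 320.8 ± 1.68. Its chalazal minus general seed coat difference was 1.59. The genes named here were picked for their likeness over these same arrays, so their levels are a description and no separate support. GAMMA-VPE varied less, from 13980 ± 947 in the chalazal seed coat to 1154 ± 112 in the embryo proper. AT2G39400 read 1295 ± 32.5 in the chalazal and 1499 ± 284 in the general seed coat, with no call between them (-0.19, adjusted p = 0.859).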

How the data were processed

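Each array held RNA from 1 sample, 5 to 6 ng before amplification (2 to 5 ng for the micropylar endosperm), per the labels' protocols. As deposited, values are linear signal intensities that the authors made with GCOS, per the submitters' processing notes (version not given in the sources used here). On each array their 2% trimmed mean was 500, as found from the values.

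Of 22810 probe sets, 64 controls were left out, and the test covered those brighter than the median of their array in both replicates of at least 1 group (14765, or 64.91%). log2(intensity + 32) was fitted in limma 3.58.1 (R 4.3.3) over all 14 arrays with an intensity trend, with Benjamini-Hochberg adjustment in each contrast over every probe set tested. The code was tested on simulated data. Nothing in the labels beyond "biological replicate" says how the plants were divided. The p-values measure the spread between the samples within a group, which limma adjusts with information from all probe sets tested. Alternatives were 2 other pseudocounts, no filter, no trend, quantile, median and spike-control scaling, a replicate block, leaving out whole groups and leaving out each array.

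The platform annotation gave 13513 probe sets a single gene (13436 found in the RefSeq TAIR10.1 table, used for names) and several for 503. Members and gene lists were chosen with earlier results of these data known. The rule for named genes was BAN, DFR, the listed flavonoid and reductase genes, and the 5 probe sets most like each member.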

Additional observations from a re-analysis of the deposited data

How the results depend on the processing

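Over 39 results and 25 settings, 884 of 923 comparisons kept their direction and their side of the threshold (counts within 1.5 times), and 10 reversed. The seed coat against embryo and endosperm call held for BAN and DFR in every setting. With log2(intensity + 1), chalazal minus general seed coat was 1.92 for BAN, no longer called, and whole seeds minus the compartment mean was 0.76 for BAN, reversed. The DFR difference between the seed coat regions was called at 1.34 with log2(intensity + 100), 1.52 after quantile normalization, 2.36 with spike-control scaling and 1.36 without both micropylar endosperm arrays. Leaving out single arrays gave 1.63 to 2.11 for BAN and 1.17 to 1.55 for DFR there, and -0.23 to 0.06 for BAN in whole seeds. Chalazal endosperm minus embryo proper, near 0, reversed for DFR to -0.12 with log2(intensity + 1), -0.08 after quantile normalization and -0.53 with spike controls, and for BAN to -0.03 and -0.08 under the latter 2, with -0.44 to 0.55 and -0.01 to 0.13 on leaving out arrays. General seed coat minus micropylar endosperm for DFR reversed to -0.02 with spike controls, where the peripheral minus micropylar difference of DFR was called, at -1.73. The cause of these changes was not tested, except that fewer arrays were used where an array was left out.

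Between seed coat regions 2425 probe sets were called, 4470 with spike controls and 1559 to 2857 on leaving out arrays (1559 without replicate 1 of the chalazal seed coat). Of 1096 called in whole seeds, 292 were called without replicate 1 of that group and 285 without replicate 2, with 1329 the highest on leaving out an array. Spike control signals ranged from 15500 to 69390 (geometric means), so that scaling to them moved the median of all probe sets from 0.045 to -0.783 (seed coat against embryo and endosperm), from -0.021 to 0.827 (seed coat regions) and from 0.162 to -0.247 (whole seeds). The share of calls that were higher went from 54.4% to 16.9%, from 50.2% to 92.3% and from 85.8% to 40.3% (70.2% with median centring). Relative to that median the seed coat difference was 3.96 for BAN and 4.58 for DFR as deposited, and 4.02 and 4.52 with spike controls. Between the seed coat regions it was 1.89 and 1.38, and 1.99 and 1.53.

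Same-numbered samples showed no common deviation (r from -0.0307 to 0.0446 over 15 pairs of groups, without the micropylar endosperm). This cannot show whether they shared plants or a batch, since a small common effect could be hidden by other variation. With the replicate block the DFR difference between seed coat regions was 1.36 and passed (limma, adjusted p = 0.0478).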

Other observations

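A list of 21 further loci was written as relatives of DFR and BAN in the reductase family from background knowledge, and the membership of loci without a name was not checked against an annotation. Of these, 13 were represented by a probe set naming a single gene and 8 were tested. In a fit of all 13 without the filter on dim values, 4 were higher in the seed coat than in the embryo and endosperm, 1 was lower and 8 were not called, with a median of 0.59 against 0.12 over all probe sets, of which 23.8% were called. AT5G14700, 1 of the 4, passed the filter only through the general seed coat. The remaining values are from the fit with the filter. There AT2G23910 was higher in the seed coat by 4.62 (limma, adjusted p = 2.12e-09), a size close to that of DFR, and AT1G09500 was lower, at -2.73 (adjusted p = 1.08e-05). Within the seed coat AT2G23910 went the other way from BAN, with -1.71 ± 0.46 (SE) in the chalazal against the general region (adjusted p = 0.0152) and levels of 1831 ± 626 and 5918 ± 860 (SD, n = 2 arrays). It was the only one of the 8 called there, where 16.4% of all probe sets were.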
